A study of Mus musculus with 4 samples.

Results

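The 10 genes described here are those of YAP (Yap1) and TAZ (Wwtr1), of the DNA-binding partner TEAD1 (Tead1) and of the kinase LATS2 (Lats2), and 6 known targets, Ankrd1, Axl, F3, Amotl2, Ctgf and Cyr61. They were picked by symbol, with earlier results of these data known, and all 10 were found among the 23282 rows of each count table. Mouse primary pancreatic acinar cells (strain C57BL/6J) carried an adenovirus for the nuclear receptor ERRγ (gene Esrrg), against an adenovirus for green fluorescent protein (GFP). Both groups had 2 libraries, a multiplicity of infection of 100, 36 h of exposure and a medium with 25 ng/ml human epidermal growth factor, 2.5% serum and trypsin inhibitor. The sources used here give neither the age of the mice, nor the promoter in the virus, nor whether replicate libraries had separate animals or cultures as their origin. Errors and p-values thus measure the spread between these samples alone, and that spread may be technical. Transcript ends were sequenced (Lexogen QuantSeq) from 500 ng total RNA.

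YAP and TAZ are coactivators that bind no DNA themselves and act in the nucleus through TEAD factors. In the Hippo pathway, the kinases MST1 and MST2 (genes Stk4 and Stk3) activate LATS1 and LATS2, which phosphorylate YAP and TAZ and so keep them in the cytoplasm. The targets Lats2 and Amotl2 encode restraints on YAP and form a negative feedback loop. In the pancreas YAP and TAZ are known from ducts, and from acinar cells that take on duct features during injury or in culture. Transcript levels show nothing of the phosphorylation or the location of these proteins, which were not measured here.

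The libraries with ERRγ held 10480878 and 10645277 counts, and those with GFP 10105604 and 11012351. The ribosomal RNA row Rn45s took 9.48% to 14.39% of them. Esrrg, the gene in the virus, stood at 129.6 and 1284 counts per 1000000 (CPM, on scaled library sizes) with ERRγ and 8.8 and 9.6 CPM with GFP, so ERRγ library 2 held 9.9 times the level of library 1. The 15 acinar markers summed to 1204 and 1078 counts in the ERRγ libraries and 1171 and 627 in the GFP libraries, with Ptf1a at 0 throughout. The 8 duct markers summed to 28031 and 30147 counts in the ERRγ libraries and 32230 and 35809 in the GFP libraries. By these markers the transcripts go against the label acinar, and the values are those of the cultures as a whole. In such bulk samples fewer cells of a type and less RNA per cell cannot be told apart.

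Within 300 bases around the transcript start (250 before, 50 after), promoters of 7 of the 8 genes with an entry held the letters GGAATG or, on the other strand, CATTCC, the core of the element that TEAD factors bind. RefSeq windows on GRCm38.p6, the assembly behind mm10, were matched for all of the 10 genes but Ctgf and Tead1. The core is short: it stood in 14.7% of all windows in the table and, by gene, in 14.8% of the 9870 genes with both a tested row and a window. The genes were picked as members or known targets of a pathway that acts through TEAD factors. Their share with the core is thus not independent of that choice and supports nothing on its own. The stretches below show the core in capitals, 5′ to 3′ on the strand of each gene, with 12 bases on either side.
Yap1: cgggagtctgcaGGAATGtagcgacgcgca
Wwtr1: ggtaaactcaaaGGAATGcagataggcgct
Lats2: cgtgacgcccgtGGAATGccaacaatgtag
Amotl2: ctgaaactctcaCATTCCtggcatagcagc
Ankrd1, distal: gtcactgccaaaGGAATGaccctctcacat
Ankrd1, proximal: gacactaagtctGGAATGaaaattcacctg
Cyr61: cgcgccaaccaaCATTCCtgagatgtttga
Axl: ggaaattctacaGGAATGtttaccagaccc
These stretches lie at chr9:8004720-8004749 (Yap1), chr3:57576029-57576058 (Wwtr1), chr14:57746102-57746131 (Lats2), chr9:102717727-102717756 (Amotl2), chr19:36120037-36120066 and chr19:36119950-36119979 (Ankrd1), chr3:145650071-145650100 (Cyr61) and chr7:25788949-25788978 (Axl). Amotl2 is on the plus strand and the others are on the minus strand. Those of Yap1, Wwtr1, Cyr61 and Axl lie outside the GENCODE M21 transcripts of their gene, whereas those of Lats2, Amotl2 and Ankrd1 lie in untranslated exon sequence of at least one transcript. Ankrd1 is the one of these genes with 2 copies, whose first bases lie at −210 and −123 from its RefSeq start. In Axl the core begins at −233, in Cyr61 at −103, and in Lats2 at 4 bases past the start.

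**Figure D1:**
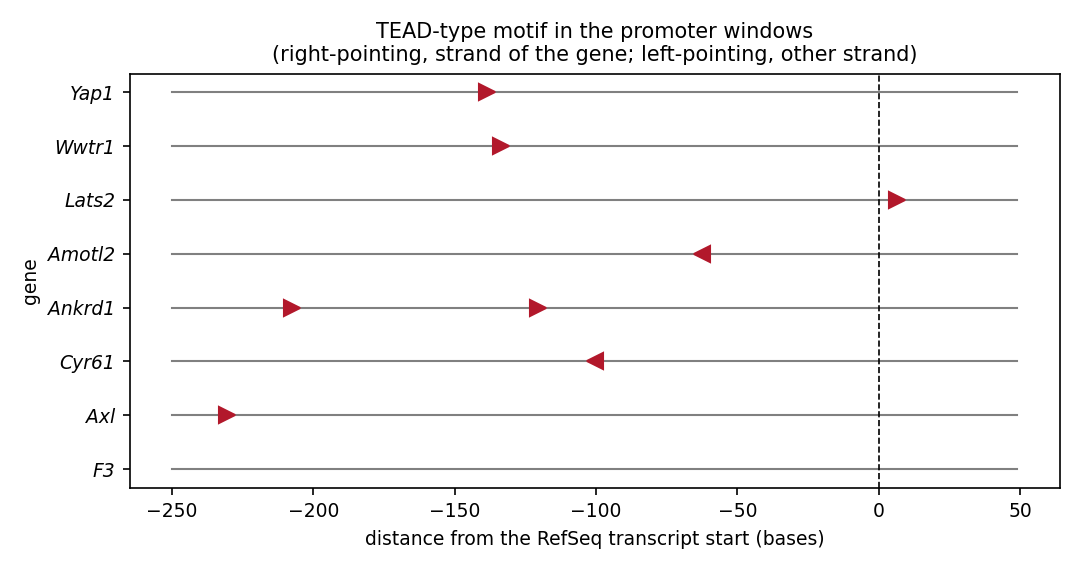
Position of the core GGAATG or CATTCC (arrowheads) in the promoter windows of 8 genes, in bases from the RefSeq transcript start (dashed line). Ankrd1 has 2 and F3 has 0, and where a gene has several windows the one with the highest end coordinate among those that hold the core is drawn.

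F3 had no match in its window, and its level with ERRγ was 50.1% of that with GFP, close to the 49.6% of Axl, which had one. The 250 bases before the start are shown for both genes, at chr7:25788734-25788983 (Axl, minus strand) and chr3:121723287-121723536 (F3, plus strand).
Axl: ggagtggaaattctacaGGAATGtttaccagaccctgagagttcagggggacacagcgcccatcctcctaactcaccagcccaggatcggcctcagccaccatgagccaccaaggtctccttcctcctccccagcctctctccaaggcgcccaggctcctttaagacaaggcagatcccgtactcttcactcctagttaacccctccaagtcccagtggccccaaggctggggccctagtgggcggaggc
F3: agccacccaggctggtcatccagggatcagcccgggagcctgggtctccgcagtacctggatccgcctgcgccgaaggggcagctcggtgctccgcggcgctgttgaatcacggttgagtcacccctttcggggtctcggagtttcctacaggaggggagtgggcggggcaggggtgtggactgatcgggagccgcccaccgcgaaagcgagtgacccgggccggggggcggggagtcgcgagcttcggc
The core was also found in Yap1 and Wwtr1, whose levels with ERRγ were 106% and 102% of those with GFP. These genes were set side by side with their levels known, and a link between the core and the levels was not tested. The estrogen-related receptor element, AAGGTCA, was searched on both strands. It was in 0 of the windows of these 8 genes, and in 4.72% of all windows in the table. With so few windows, a count of 0 says little beside that share. A match is no more than these letters in this stretch, and its absence says only that they are not there.

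Transcripts of the coactivators overlapped between the groups, while the other 8 of the 10 genes were lower in both ERRγ libraries. The genes lower with ERRγ include the partner Tead1, the kinase gene Lats2 and all 6 known targets, at 49.6% to 77.1% of the level with GFP. In each of these 8 genes both ERRγ libraries lay below both GFP libraries, which 26.6% of all 13070 rows tested also showed. In edgeR's quasi-likelihood test over all rows, 5 of the 10 genes (Tead1, Lats2, Ankrd1, Axl and F3) were called lower and 0 higher, where 1.78% of all rows were called lower, 5.06% higher and 6.84% in either direction. The genes were chosen from this contrast, so these counts and the values that follow are a description and support nothing on their own. All 10 passed the filter on low counts. Levels are in CPM, errors are SD with n = 2 a group, and a log2 fold change is that of ERRγ over GFP with its standard error (SE).

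**Figure D2:**
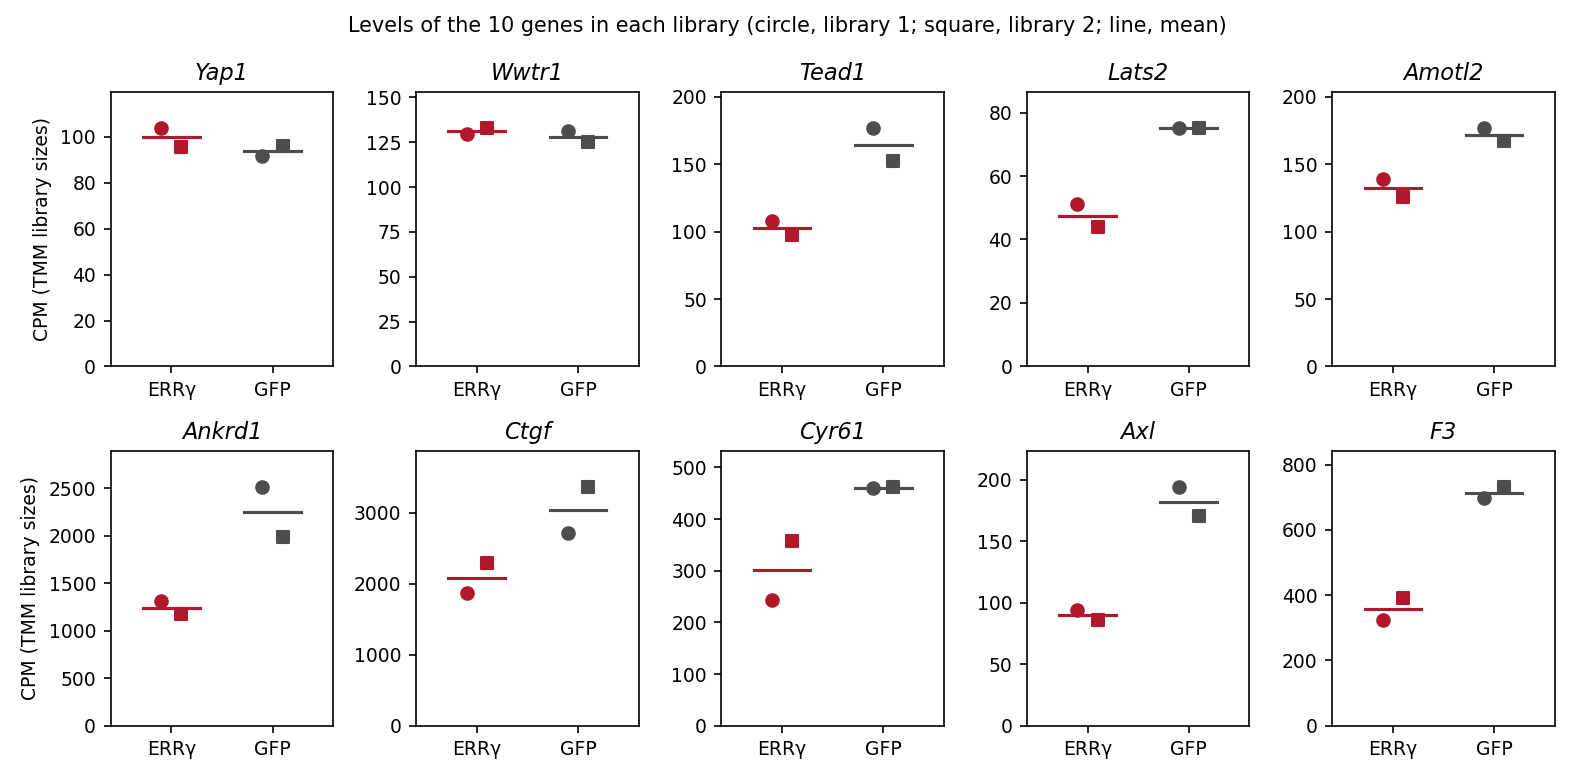
Level of each of the 10 genes in CPM (vertical axes, from 0) in the ERRγ libraries (left) and the GFP libraries (right), with the mean as a line. Yap1 and Wwtr1 overlap between the groups, and in the other 8 genes both ERRγ libraries lie below both GFP libraries.

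Yap1 (chromosome 9, 7931999 to 8004596, minus strand, GRCm38) had 104 and 95.6 CPM with ERRγ and 91.8 and 95.9 CPM with GFP. Its log2 fold change was 0.09 (SE 0.13), with a 95% interval of −0.21 to 0.39. Wwtr1 (chromosome 3, 57455649 to 57575910, minus strand) had 129.7 and 133 CPM with ERRγ and 131 and 125 CPM with GFP, a log2 fold change of 0.03 (SE 0.13, interval −0.26 to 0.33). The groups overlapped in both genes, and both intervals lie above the log2 fold changes of the other 8 genes, of which Amotl2 at −0.37 was the nearest. The intervals of Amotl2 (−0.68 to −0.07), Ctgf (−0.95 to −0.14) and Cyr61 (−1.05 to −0.18) nevertheless overlap those of Yap1 and Wwtr1. Those of Tead1, Lats2, Ankrd1, Axl and F3 lie below both. All these intervals draw on a spread pooled over all rows, and the separation was not tested with each gene's own spread alone. With each library left out in turn, the log2 fold change was 0.03 to 0.15 for Yap1 and 0.00 to 0.06 for Wwtr1.

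Tead1 encodes a TEAD factor through which YAP and TAZ reach DNA (chromosome 7, 112679318 to 112906807, plus strand). It had 108 and 97.2 CPM with ERRγ and 177 and 152 CPM with GFP, which gave −0.68 on the log2 scale (SE 0.14). Both ERRγ libraries were low and close together, and the GFP libraries differed more from each other.

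Of Lats2 and Amotl2, the feedback restraints among the targets, Lats2 was called lower and Amotl2 was not called. Lats2 (chromosome 14, 57689662 to 57758388, minus strand) had 51.1 and 44.0 CPM with ERRγ and 75.0 and 75.2 CPM with GFP, a log2 difference of −0.66 (SE 0.14). The ERRγ libraries were both low and the GFP libraries almost equal. Its call ended when library totals took the place of scaled sizes. Its span overlaps that of Gm49361 on the same strand, which has no row under that symbol, so reads of the pair cannot be told apart. Amotl2 encodes angiomotin-like 2, a junction protein that binds YAP (chromosome 9, 102716672 to 102733418, plus strand). It had 139 and 126 CPM with ERRγ and 177 and 167 CPM with GFP, and at −0.37 (SE 0.13) it showed the smallest difference of the 8 genes.

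Ankrd1 encodes an ankyrin repeat protein of muscle and of stressed epithelia (chromosome 19, 36111961 to 36120099, minus strand). It had 1311 and 1171 CPM with ERRγ and 2511 and 1988 CPM with GFP, which is −0.86 on the log2 scale (SE 0.17). The gap between the groups was wider than the spread within either, although the GFP libraries were 0.34 apart on the log2 scale.

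Ctgf and Cyr61, now also named Ccn2 and Ccn1, encode secreted matricellular proteins and are the targets most often read as a sign of YAP and TAZ activity. Ctgf (chromosome 10, 24595442 to 24598683, plus strand) had 1870.1 and 2297 CPM with ERRγ and 2711 and 3359.7 CPM with GFP, a log2 difference of −0.54 (SE 0.18). Cyr61 (chromosome 3, 145646976 to 145649981, minus strand) had 244 and 358 CPM with ERRγ and 460.2 and 462 CPM with GFP, which is −0.62 on the log2 scale (SE 0.19). The 2 ERRγ libraries of Cyr61 were 0.56 apart on the log2 scale, more than for any other of the 10 genes. Neither gene was called in the test over all rows. Both were called by DESeq2 and without a filter on low counts, and neither in the other 6 alternative fits of all 4 libraries.

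Axl and F3 encode proteins of the cell surface, the receptor tyrosine kinase AXL and tissue factor, which starts blood coagulation. Axl (chromosome 7, 25757273 to 25788705, minus strand) had 94.3 and 86.3 CPM with ERRγ and 194 and 170.1 CPM with GFP, and the group means were 90.3 ± 5.63 and 182 ± 17.0 CPM (log2 fold change −1.01, SE 0.14). F3 (chromosome 3, 121723537 to 121735048, plus strand) had 324 and 390 CPM with ERRγ and 696 and 731 CPM with GFP, with means of 357 ± 46.5 and 713 ± 24.7 CPM (log2 fold change −1.0, SE 0.15). These 2 genes showed the largest differences of the 10.

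**Figure D3:**
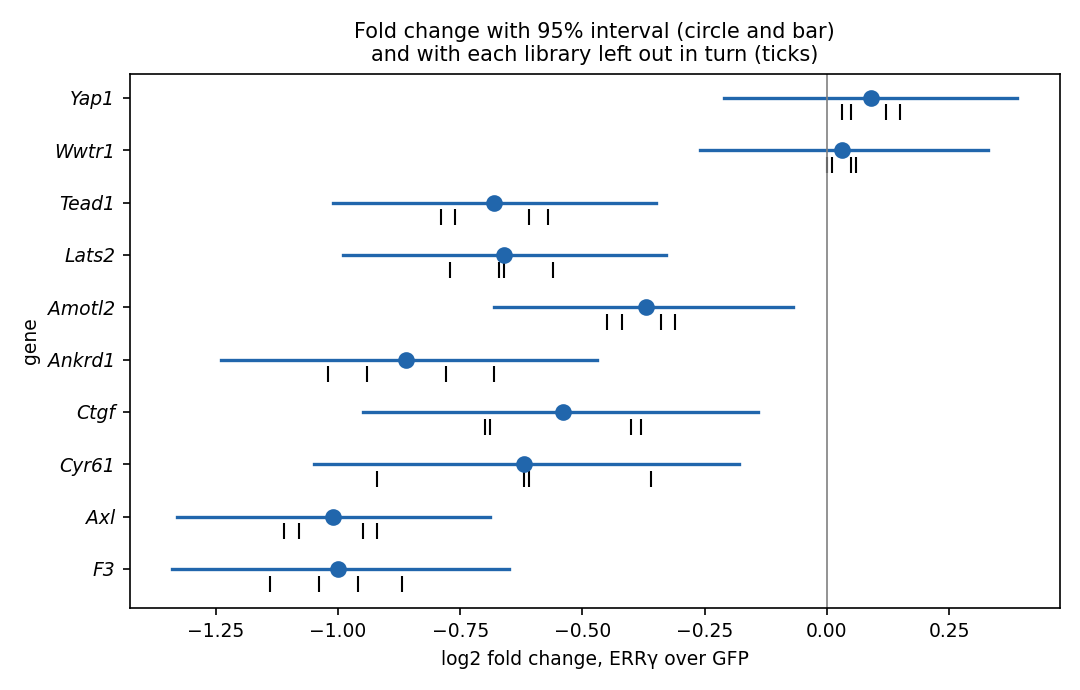
Log2 fold change of each of the 10 genes (horizontal axis, ERRγ over GFP) with its 95% interval, and the value with each of the 4 libraries left out in turn as ticks. The bars of Yap1 and Wwtr1 cross 0, and every tick of the other 8 genes lies below 0, from −1.14 to −0.31.

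The 8 lower genes were low in both ERRγ libraries, although these differed 9.9-fold in Esrrg. Against the GFP mean, Axl stood at 51.8% in ERRγ library 1 and 47.4% in library 2, and Ankrd1 at 58.3% and 52.0%. F3 stood at 45.5% and 54.7%, Ctgf at 61.6% and 75.7%, and Cyr61 at 52.9% and 77.7%. Over the 8 genes the log2 ratio of ERRγ library 1 to library 2 ran from −0.56 to 0.22, and that of GFP library 1 to library 2 from −0.31 to 0.34. Tead1, Lats2, Ankrd1, Axl and Amotl2 had their lower value in ERRγ library 2, and F3, Ctgf and Cyr61 in ERRγ library 1. With 1 library at each Esrrg level this order has no replicate.

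Each of the 4 libraries was left out in turn, which leaves 1 library in a group, so the spread comes from the other pair alone. With a GFP library left out there were fewer calls, and with an ERRγ library left out there were more. This held over all rows as well as for the 10 genes, so that change is not particular to them. Signs of the 8 lower genes held in all 4 of these fits, and Cyr61 moved most, to −0.92 on the log2 scale without ERRγ library 2 and −0.36 without ERRγ library 1.

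Among Hippo kinases and their regulators, Amot and Nf2 were lower with ERRγ while Stk3, Stk4 and Lats1 were not called. The list was written with earlier results of these data known and holds 31 genes, of which 29 could be tested. Of these, 2 fell (6.9%, where 1.78% of all rows fell), 0 rose (where 5.06% of all rows rose) and 27 were not called. Their median log2 fold change was −0.20, against −0.01 for all rows. Both ERRγ libraries lay below both GFP libraries in 15 of the 29, a larger share than the 26.6% of all rows. Amot, angiomotin, a junction scaffold that binds YAP (chromosome X, 145446425 to 145505181, minus strand), had 47.4 and 39.2 CPM with ERRγ and 102 CPM in both GFP libraries, a log2 difference of −1.23 (SE 0.15, edgeR adjusted p = 0.00416). Nf2, which encodes merlin, an activator of LATS kinases (chromosome 11, 4765845 to 4849536, minus strand), had 55.3 and 36.5 CPM with ERRγ and 77.4 and 88.4 CPM with GFP, which is −0.85 on the log2 scale (SE 0.21, edgeR adjusted p = 0.0487). The call for Nf2 is the weaker: it ended with library totals in place of scaled sizes (adjusted p = 0.091) and with a filter at 5 CPM (0.0509), and on the log2 scale Nf2 stood at −1.19 without ERRγ library 1 and −0.59 without ERRγ library 2.

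Of the core kinases, Stk4 had 115 and 114 CPM with ERRγ and 166 and 141 CPM with GFP, a log2 difference of −0.42 (SE 0.14, edgeR adjusted p = 0.119), and Stk3 had 27.9 and 34.9 CPM with ERRγ and 40.4 and 35.2 CPM with GFP (−0.27, SE 0.17). Lats1, the paralog of Lats2, had 41.9 and 40.2 CPM with ERRγ and 46.3 and 44.2 CPM with GFP (−0.14, SE 0.14, interval −0.46 to 0.18). The scaffold gene Sav1 was at 28.3 and 18.5 CPM with ERRγ and 28.2 and 28.8 CPM with GFP, and Ptpn14, a phosphatase that binds YAP, at 82.5 and 102 CPM with ERRγ and 109.7 and 102 CPM with GFP, and neither passed. Stk4 overlaps Tomm34 and Sav1 overlaps Atl1, on the opposite strand, and the sources used here do not say whether counting used strand.

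Of the other TEAD genes and the VGLL cofactors, which compete with YAP for TEAD, 5 of 7 could be tested, 1 fell and 0 rose, where 1.78% of all rows fell and 5.06% rose. Tead2 was the one that fell, with 56.3 and 55.7 CPM in the ERRγ libraries and 87.8 and 86.2 CPM in the GFP libraries (log2 fold change −0.63, SE 0.13, edgeR adjusted p = 0.0287), and its call ended with library totals (0.0544). Cd37, on the opposite strand of Tead2, had no count in any library. Tead3 (10.3 and 4.35 CPM with ERRγ, 6.65 and 8.26 CPM with GFP) and Tead4 (3.48 and 4.94 CPM with ERRγ, 3.17 and 1.97 CPM with GFP) were low in all libraries. Vgll3 and Vgll4 did not pass either, with log2 fold changes of −0.73 (SE 0.47) and −0.34 (SE 0.19). Vgll3 ran from −1.36 without ERRγ library 1, where it was called, to −0.01 without GFP library 1, and Vgll4 from −0.53 to −0.16 over the fits that left out 1 library.

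A wider list of 62 other YAP and TAZ target genes did not move in one direction. It was drawn from general knowledge of published target signatures, with earlier results of these data known. Of its 59 tested genes, 5 rose (8.47%, where 5.06% of all rows rose) and 2 fell (3.39%, where 1.78% of all rows fell), and 52 were not called. Its median log2 fold change was −0.06, against −0.64 for the 10 genes above and −0.01 for all rows. The 10 genes were chosen with results of this contrast known, so the gap between these medians is not independent of that choice. In the wider list, both ERRγ libraries lay above both GFP libraries in 16 genes and below them in 17. Of all rows, 27.4% and 26.6% did so.

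Tgm2, which encodes the crosslinking enzyme transglutaminase 2, rose 13.2-fold, with 930 and 935 CPM with ERRγ and 68.8 and 72.3 CPM with GFP, which is 3.72 on the log2 scale (SE 0.15, edgeR adjusted p = 5.28e-05). It was called in all 12 alternative fits. Tgm2 overlaps Rprd1b on the opposite strand, whose 550 and 384 counts in the ERRγ libraries and 433 and 458 in the GFP libraries show no rise of that size. Dut, a dUTPase of nucleotide metabolism, rose 1.96-fold (59.4 and 61.0 CPM with ERRγ, 30.3 and 31.1 CPM with GFP, edgeR adjusted p = 0.0071). Mdfic, which encodes an inhibitor of MyoD-family factors, rose 2.17-fold, the tetraspanin gene Tspan3 1.65-fold, and Igfbp3, a secreted binder of insulin-like growth factors, 1.80-fold (edgeR adjusted p = 0.0281, 0.0206 and 0.033). In these 4 genes both ERRγ libraries also lay above both GFP libraries.

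The 2 that fell were Thbs1 and Ddah1. Thbs1 encodes thrombospondin 1, a matricellular protein like those of Ctgf and Cyr61, and had 286 and 196 CPM with ERRγ and 579 and 448 CPM with GFP, a log2 difference of −1.09 (SE 0.21, edgeR adjusted p = 0.0231). Ddah1, which encodes an enzyme that breaks down methylated arginine, had 115 and 118 CPM with ERRγ and 207 and 187 CPM with GFP, which is −0.76 on the log2 scale (SE 0.13, edgeR adjusted p = 0.016). Of the 10 genes of these lists past the threshold, Tgm2 alone kept its call without either GFP library (adjusted p = 0.00616 without GFP library 1 and 0.0047 without GFP library 2).

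**Figure D4:**
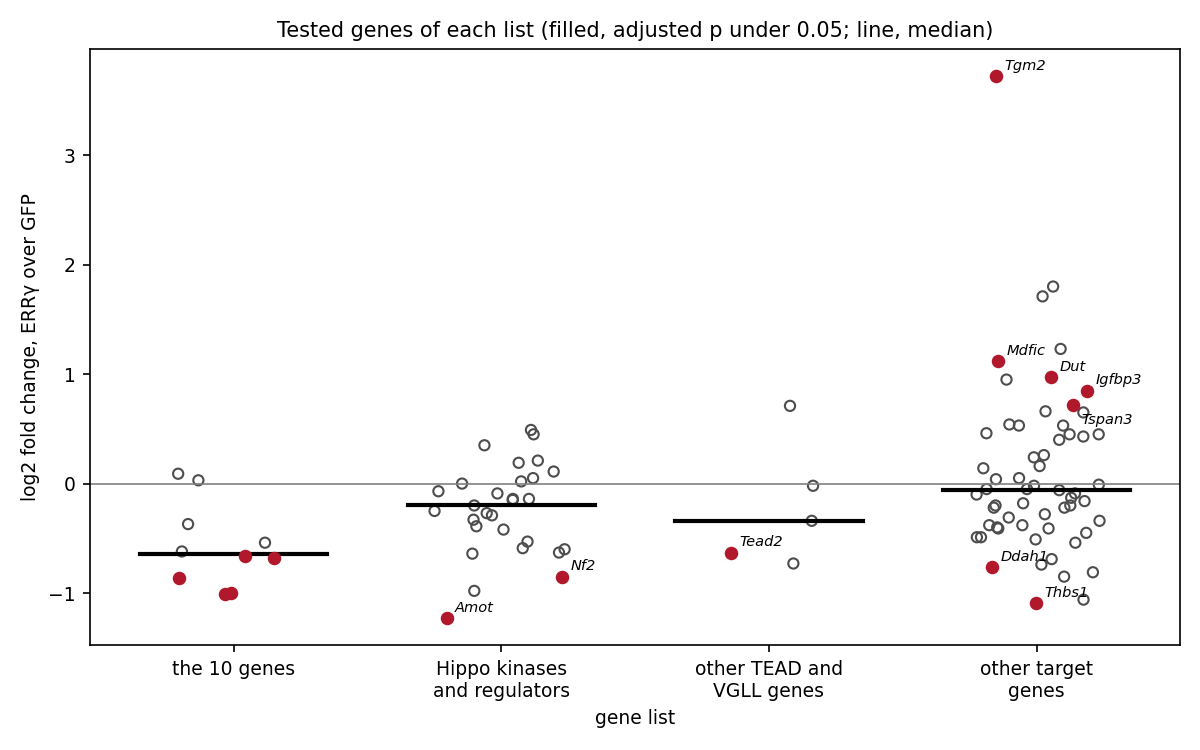
Log2 fold change (vertical axis, ERRγ over GFP) of the tested genes in 4 lists, with genes past the threshold filled and the median of each list as a line. The median of the 10 genes, which were chosen with results of this contrast known, lies at −0.64. That of the other target genes lies at −0.06, with Tgm2 at 3.72.

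By gene, the TEAD core was in the promoter windows of 7 of 25 Hippo kinases and regulators with an entry (28%). It was in 4 of 6 other TEAD and VGLL genes (66.7%) and 6 of 40 of the wider target list (15%). The share was 87.5% of the 8 genes above, 16.6% of all genes with a window and 14.8% of those that also had a tested row. These lists were picked as parts or targets of this pathway, so their shares are not independent of that choice. The estrogen-related receptor element was in 3 of 25 (12%), 0 of 6 and 2 of 40 (5%) genes of these lists in turn, where 5.38% of all genes held it.

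Markers of other cells were set beside these values. The 10 fibroblast and stellate cell markers, a cell type in which YAP targets are high, summed to 611 to 949 counts per 1000000 with ERRγ and 677 to 1057 with GFP, and 0 of them were called. The 6 endothelial markers summed to 6.48 to 8.01 with ERRγ and 4.27 to 13.1 with GFP. The 6 islet markers ranged from 7.61 to 32.2 with ERRγ and from 19.4 to 130.4 with GFP. The 6 macrophage and leukocyte markers summed to 52.3 to 68.6 with ERRγ and 92.0 to 92.1 with GFP, mostly Cd14, which fell (edgeR adjusted p = 0.0488), while the leukocyte gene Ptprc had 0 counts in both ERRγ libraries and 1 and 0 with GFP. Among the 8 duct markers, Krt7 and Muc1 fell to 63.5% to 65.2% of their GFP mean in each ERRγ library and Cftr rose (edgeR adjusted p = 0.0285, 0.0295 and 0.0444), whereas Krt19 and Sox9 were not called. The trypsinogen gene Prss2 was the 1 of 11 tested acinar markers that was called, with 14.0 and 26.8 CPM with ERRγ and 3.79 and 2.15 CPM with GFP (edgeR adjusted p = 0.00905), and near-identical trypsinogen copies can share its reads. The part that these shifts have in the lower levels of the 8 genes was not tested.

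Of the rows compared, those with the pattern most like Ctgf over the 4 libraries were Gatad2b, Sprr2a2 and Cers5. Those most like Ankrd1 were Fam83g, Pof1b and Enho. Likeness was the root mean square distance of log2 CPM, taken with a small offset and centred on each row's mean. The comparison covered 8349 rows outside the lists with a mean of at least 10 CPM over the 4 libraries. Predicted genes (Gm or Rik symbols) and rows with a repeated symbol were left out. The distance ran from 0.00917 to 0.0414 for Ctgf and from 0.0176 to 0.0449 for Ankrd1. Gatad2b had 29.6 and 35.9 CPM with ERRγ and 42.9 and 53.0 CPM with GFP, and Fam83g had 32.1 and 29.5 CPM with ERRγ and 63.4 and 50.4 CPM with GFP. Sprr2a2 has near-identical family members that can share its reads. With 4 libraries such likeness is a description of these samples.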

How the data were processed

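Each library has 1 deposited table of raw counts by gene symbol. The submitters' processing notes name Bowtie2, edgeR and mm10 but give no roles. The sources used here do not give the counter, annotation, strand use or filters, so overlapping genes may share reads. Totals ran from 10105604 to 11012351 counts, and 3 counts in a library correspond to 0.272 to 0.297 per 1000000 counts. No molecular identifiers are mentioned, so such floors cover counting error alone.

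Rows were kept by filterByExpr (minimum count 10), which left 13070 rows of 17888 with a count. Libraries were scaled by TMM and tested in R 4.3.3 with edgeR 4.0.16 (glmQLFit, glmQLFTest, group alone, 2 residual degrees of freedom, prior count 0.125). P-values are two-sided, Benjamini-Hochberg adjusted over all rows, with a threshold of 0.05. The SE is the log2 fold change divided by the square root of F. Alternatives used DESeq2 1.42.0, limma 3.58.1 (voom), other scalings and filters, a replicate block and each library left out. The 10 genes, the lists and the naming rule were chosen with earlier results of these data known. The rule named the 10 genes, Esrrg, 11 fixed pathway genes, up to 5 (wider target list) or 4 (other lists) called genes a direction by p, and 3 nearest patterns each for Ctgf and Ankrd1. Positions come from GENCODE M21 (GRCm38) by symbol, and promoters from RefSeq (GRCm38.p6).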

Additional observations from a re-analysis of the deposited data

How the results depend on the processing

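Over all rows, 661 genes rose and 233 fell, and without a filter on low counts it was 1271 and 738. Leaving out 1 library gave 92 to 1597 rises and 7 to 1098 falls. The 10 genes had 5 called lower, and 0 to 7 leaving out 1 library, with none called higher. Kinases and regulators had 2 lower, against 1 with library totals, 1 with a 5 CPM filter, 6 without a filter, 5 with DESeq2 and 0 to 7 leaving out a library, where 0 to 1 were higher. The TEAD and VGLL list had 1 lower, 0 with library totals and 0 to 2 leaving out a library. The wider target list had 5 higher and 2 lower, 10 and 7 without a filter, and 1 to 10 and 0 to 11 leaving out a library. Tead3, not called, was at −0.02 and turned sign with library totals (0.04). It ran from −0.78 (without ERRγ library 1) to 0.47 (without ERRγ library 2), and was at 0.15 without GFP library 2. The cause of these moves was not tested. With the replicate block, 776 genes rose and 315 fell, and 4 kinases and regulators and 4 of the wider list were lower. The labels do not say what a replicate number shares. Library 1 minus library 2 correlated at 0.00744 between the groups over 13070 genes, while islet markers (median log2 ratio 2.07 with ERRγ, 2.71 with GFP) and acinar markers (1.08 and 0.98) were higher in library 1 of both, so a partial pairing was not settled. With 2 libraries a group, each gene has 2 residual degrees of freedom of its own. The edgeR intervals and p-values also draw on a spread pooled over all rows. For a given SE, the intervals are thus narrower than 2 residual degrees of freedom alone would give.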

Other observations

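In the wider target list, Ndrg1 and Dusp1 differed mainly between the ERRγ libraries, and they were chosen after their values were seen. Ndrg1, a gene induced by low oxygen and other stress, had 90.7 and 909 CPM with ERRγ and 151 and 155 CPM with GFP. The phosphatase gene Dusp1 had 103 and 722 CPM with ERRγ and 131 and 107 CPM with GFP. In both genes ERRγ library 1 lay below both GFP libraries and ERRγ library 2 above both. Neither was called by edgeR, and the 8 lower genes of the report showed no split of this size.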
